A study of Mus musculus with 12 samples.

Results

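The genes described here are 10 trophic factors and growth factor receptors, taken by symbol from a table of 56941 genes: the ligands Bdnf, Cntf, Fgf2 and Vegfa, and the receptors Ntrk2, Ntrk3, Fgfr1, Fgfr2, Fgfr3 and Egfr. All 10 symbols were found, each on 1 row. The data were RNA sequencing libraries of hippocampal astrocytes of naive male adult mice, sorted by their surface antigen ACSA-2, with cDNA made by the SMART-Seq V4 low-input kit. Both groups carried the floxed Tnfrsf1b gene (Tnfrsf1bfl/fl), which encodes the TNF receptor TNFR2. The group labelled cKO carried the GfapcreERT2 transgene in addition (GfapcreERT2:Tnfrsf1bfl/fl), a Cre recombinase driven by the Gfap promoter and activated by tamoxifen, so that the controls (Ctrl) shared the floxed gene but not the driver. Sample titles gave A1, A2 and A8 as Ctrl and A4, A9 and A10 as cKO, each with an S1 and an S2 library. The labels define neither A nor S and do not state that A numbers are separate animals. The S1 and S2 libraries of an A number were averaged to 1 unit, giving n = 3 units per group, and p-values measure only the spread between these units.

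Neurotrophins such as BDNF signal through Trk receptor kinases, and astrocytes are known for a truncated form of TrkB, the product of Ntrk2, that lacks the kinase. FGFs and EGF-family ligands act on their own receptor kinases, which feed into the RAS-MAPK, PI3K and PLC-gamma pathways, and in the brain FGFR3 is a receptor typical of astrocytes. CNTF signals through a receptor complex and JAK-STAT, and VEGF-A, which astrocytes release, acts mainly on endothelial cells through the receptors encoded by Flt1 and Kdr.

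The sorted cells showed a strong astrocyte profile in both groups, with Slc1a2, the main glutamate transporter, at 1588 ± 83.7 FPKM (SD, n = 3) in Ctrl and 1786 ± 198.1 in the units labelled cKO. FPKM is fragments per kilobase of exon, scaled to 1000000 counted. Markers of other cells were also present. The summed level of the 12 oligodendrocyte markers ran from 1028 to 2186 FPKM in Ctrl and from 294.3 to 706.9 FPKM in the units labelled cKO, with 11 of the 12 lower in every unit labelled cKO than in every Ctrl unit and none at 0. In bulk RNA, fewer cells of a type and less RNA per cell cannot be told apart. The mean log2(FPKM + 1) over the 8 microglia markers ran from 0.81 to 1.05 in Ctrl and from 1.06 to 1.86 in the units labelled cKO, with the defining markers Tmem119 and C1qa near 0 (group means of at most 0.785 FPKM). Over the 12 astrocyte markers, which include Fgfr3, the same mean ran from 7.61 to 7.84 and from 7.89 to 8.01. Tnfrsf1b did not check the labels, since it had 4 reads in 1 Ctrl library and 0 in the other 5, 0 in the 4 libraries of A9 and A10, and 10 and 22 reads in the libraries of A4, where deletion would lower it. The group is therefore called "labelled cKO" throughout. Recovered depth was 17311872 to 35323327 reads per library.

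The promoters of 3 members are shown because 2 of them, Vegfa and Fgfr2, were the members whose groups did not overlap, and the third, Fgfr3, had the highest mean FPKM. The table holds 2 windows each for Vegfa and Fgfr3, of which the first listed is shown. Each sequence is the 250 bases before a RefSeq transcript start on GRCm38.p6, read 5′ to 3′ on the gene's strand, with motif matches in capitals. Vegfa is at chr17:46032378-46032627 on the minus strand, Fgfr2 at chr7:130266809-130267058 on the minus strand, and Fgfr3 at chr5:33721474-33721723 on the plus strand.
Vegfa: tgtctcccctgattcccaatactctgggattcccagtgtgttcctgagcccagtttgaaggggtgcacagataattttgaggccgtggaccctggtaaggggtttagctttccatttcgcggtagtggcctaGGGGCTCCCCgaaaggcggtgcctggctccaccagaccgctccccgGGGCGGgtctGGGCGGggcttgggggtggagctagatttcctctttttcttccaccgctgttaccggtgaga
Fgfr2: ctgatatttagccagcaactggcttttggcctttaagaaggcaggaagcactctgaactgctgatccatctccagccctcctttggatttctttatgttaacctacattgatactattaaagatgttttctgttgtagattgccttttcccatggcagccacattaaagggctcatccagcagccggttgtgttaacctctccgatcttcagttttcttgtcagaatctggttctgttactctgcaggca
Fgfr3: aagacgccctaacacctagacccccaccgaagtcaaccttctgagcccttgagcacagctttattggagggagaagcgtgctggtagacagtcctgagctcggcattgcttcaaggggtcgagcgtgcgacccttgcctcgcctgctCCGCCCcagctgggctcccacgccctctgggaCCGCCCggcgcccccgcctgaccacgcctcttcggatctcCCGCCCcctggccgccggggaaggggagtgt
The capitals in Vegfa mark 2 GC boxes (GGGCGG) and 1 match to the NF-kB consensus, and those in Fgfr3 mark 3 GC boxes on the opposite strand. The second Vegfa window, at chr17:46025164-46025413 on the minus strand, lies downstream of the transcript start that follows the first window. It held 1 GC box, 1 TGACG and 1 ACGTG. The second Fgfr3 window, with 24 CpG and 72.8% GC, held 2 GC boxes. The Fgfr2 window held no match to any motif searched. It had 2 CpG dinucleotides and 44% GC, against 11 and 59.2% in Vegfa and 19 and 66.8% in Fgfr3, while the median over 32851 RefSeq windows was 6 CpG and 52.4% GC. Searched on both strands, the GC box was in 32.7% of all windows, the cyclic AMP response element TGACGTCA in 1.55%, the shorter TGACG in 17.8%, the hypoxia response core ACGTG in 16.6%, the AP-1 site TGANTCA in 6.75%, the STAT site TTCNNNGAA in 7.02% and the NF-kB consensus in 5.0%. TGACGTCA contains TGACG, and TGACG and ACGTG can share bases. Entries were found for 8 of the 10 members, with 16 windows, of which 8 held a GC box, 0 held TGACGTCA, 3 held TGACG, 3 held ACGTG, 2 held TGANTCA, 1 held TTCNNNGAA and 2 matched the NF-kB consensus. Bdnf alone had 7 of the 16 windows, among them the window with TTCNNNGAA, so these counts lean towards 1 gene. A match describes letters and not a bound site, and the absence of a match says nothing of a factor.

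The members spanned a wide range of levels, and their order by mean FPKM over the 6 units was Fgfr3, Ntrk2, Vegfa, Fgfr1, Egfr, Fgfr2, Fgf2, Ntrk3, Cntf and Bdnf. Fgfr3 averaged 152.1 FPKM, at percentile 99.2 of the 17540 genes tested, and lay above Ntrk2, the next member, in 6 of 6 units with no overlap of their ranges. FPKM divides by the annotated exonic length, which is 7158 bases for Fgfr3 and 19292 bases for Ntrk2. By recovered reads, Ntrk2 was above Fgfr3 in every library, so the order depends on these lengths. Ntrk2 at 99.0 FPKM and Vegfa at 92.0 FPKM were close, with Ntrk2 the higher in 4 of 6 units. Vegfa stood clear of Fgfr1 (33.9 FPKM) in every unit, whereas Fgfr1, Egfr (30.0 FPKM) and Fgfr2 (24.0 FPKM) had overlapping ranges, each neighbour holding its place in 5 of 6 units. Fgfr2 was above Fgf2 (4.55 FPKM), and Fgf2 above Ntrk3 (1.65 FPKM), in every unit without overlap. Ntrk3 and Cntf (1.56 FPKM) were not separated in FPKM, with Ntrk3 the higher in 4 of 6 units. Their exonic lengths are 30170 and 1073 bases, and Ntrk3 had more reads in every library. Bdnf averaged 0.387 FPKM and was below Cntf in 6 of 6 units, although the ranges over units overlapped. By FPKM, the receptors other than Ntrk3, together with Vegfa, were thus among the highest genes in these cells, at percentile 92.3 or above. The other 3 ligands and Ntrk3 lay at percentile 51.6 or below.

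**Figure D1:**
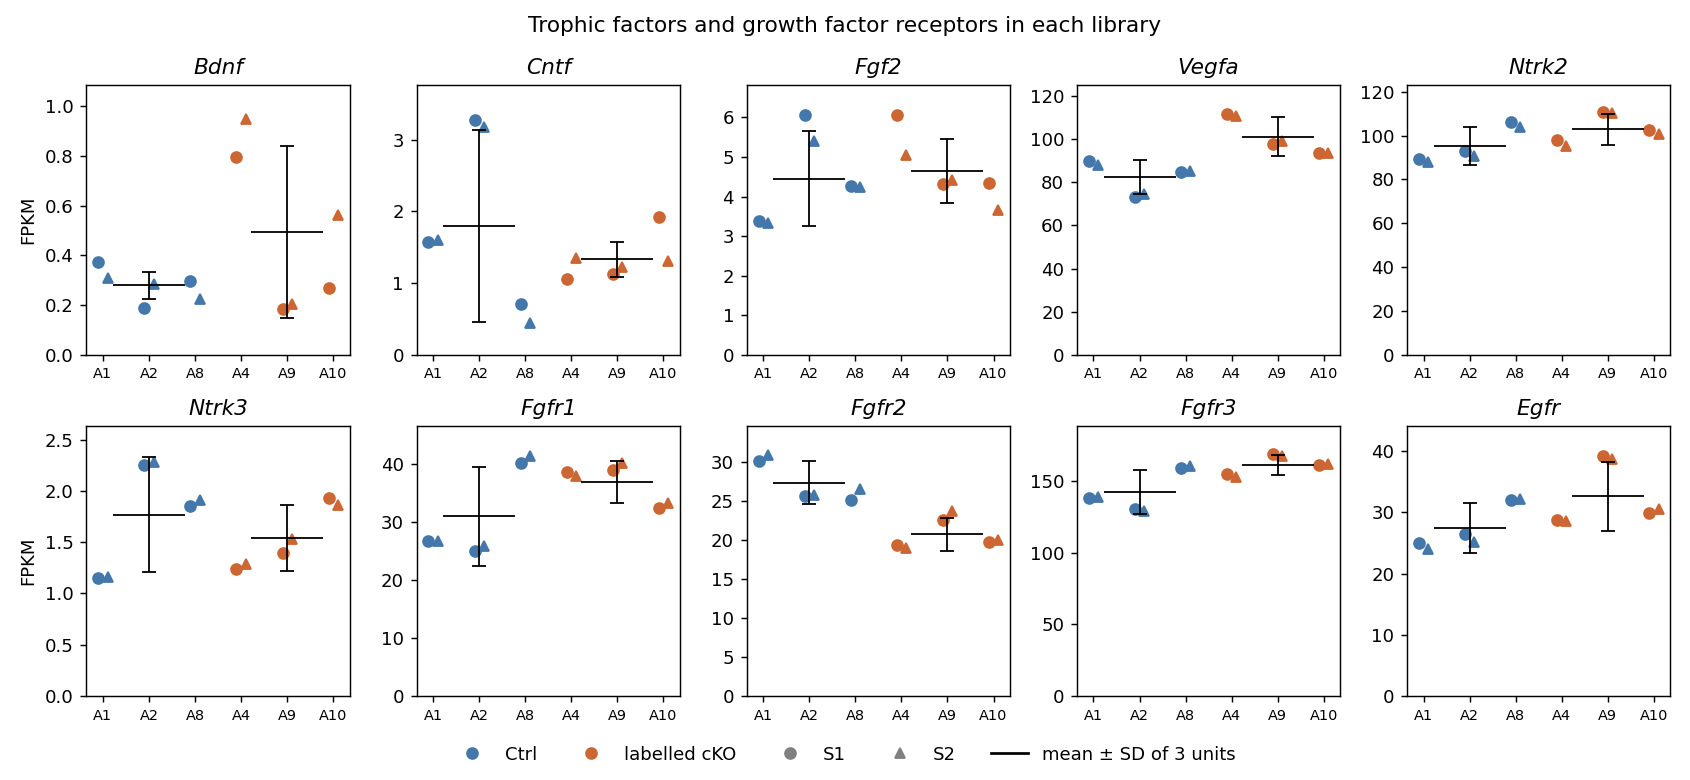
Level of each of the 10 genes in FPKM (vertical axes, from 0) in the 12 libraries, grouped by A number, with circles for S1, triangles for S2, blue for Ctrl and orange for labelled cKO; lines and bars give the mean ± SD of the 3 units per group. In Vegfa all 6 libraries labelled cKO lie above the 6 Ctrl libraries and in Fgfr2 below them, while the groups of the other 8 genes overlap.

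Between the groups, Vegfa was the ligand with the clearest separation, and Fgfr2 the receptor. With limma on log2(FPKM + 1), adjusted over all 17540 genes tested, 0 of the 9 members tested passed an adjusted p of 0.05, and 0 of all genes did (0%), the smallest adjusted p being 0.136. At an unadjusted p under 0.05, 2 of 9 members passed, Vegfa and Fgfr2, against 7.69% of all genes (1349 genes; 2.98% were higher and 4.71% lower in the units labelled cKO). With limma voom on recovered reads, the counts were 0 members and 0 genes adjusted, and 2 members and 1249 genes unadjusted. Over all alternatives run, 0 to 3 members passed at an unadjusted p under 0.05, with 0 under eBayes without trend, without A4 and with an oligodendrocyte covariate. Of all 17540 genes, 1304, 923 and 996 passed in those settings. Where 17540 genes were tested, the number passing ran from 865 without A9 (1 member) to 2431 without A8 (3 members). In 1 member, Vegfa, all units labelled cKO were above all Ctrl units, as in 5.76% of genes tested, and in 1, Fgfr2, all were below, as in 7.22%. Of the 9, 6 had a positive and 3 a negative log2 fold change, with a median of 0.11, beside a median of -0.0065 and 49.2% positive over all genes tested. Bdnf, with a mean under 1 FPKM, was not in the test.

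Vegfa, at 17:46327919-46343295 on the minus strand in the deposited table (ENSMUSG00000023951), encodes the secreted vascular growth factor VEGF-A. It measured 89.0, 73.8 and 85.3 FPKM in A1, A2 and A8, and 111.5, 98.7 and 93.7 FPKM in A4, A9 and A10. The lowest unit labelled cKO, A10, was above the highest Ctrl unit, A1, and the same held for all 12 libraries. The means were 82.7 ± 7.89 FPKM (SD, n = 3) and 101.3 ± 9.19 FPKM (SD, n = 3), a ratio of 1.23. The log2 fold change was 0.29 with a standard error of 0.12, and limma with Benjamini-Hochberg adjustment gave an adjusted p of 0.649 (unadjusted 0.0499). The exact permutation test (two-sided, 20 arrangements of the 6 units) gave p = 0.1, the smallest it can give. With the oligodendrocyte marker score as a covariate the log2 fold change was 0.05 (adjusted p = 0.977 by limma).

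Fgf2 encodes a basic FGF that lacks a classical signal peptide. In the deposited table it lies at 3:37402495-37464257 on the plus strand (ENSMUSG00000037225). It measured 3.35, 5.73 and 4.25 FPKM in the Ctrl units and 5.56, 4.38 and 4.0 FPKM in A4, A9 and A10. The Ctrl units enclosed those labelled cKO. Its log2 fold change was 0.06 with a standard error of 0.22 (adjusted p = 0.979 by limma). Of its exonic bases, 9.44% are shared with Nudt6 on the opposite strand and 3.76% with Gm43439 on its own, and how reads in these stretches were assigned is not given in the sources used here.

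Cntf encodes ciliary neurotrophic factor, a cytokine of the IL-6 family. It is annotated at 19:12741024-12742996 on the minus strand (ENSMUSG00000079415), and 78.9% of its exonic bases lie in exons of Gm44505 on the same strand, which averaged 9.31 FPKM, so its values are uncertain. The units read 1.58, 3.23 and 0.579 FPKM in Ctrl and 1.2, 1.17 and 1.62 FPKM in A4, A9 and A10, from 15 to 96 reads per library. The Ctrl units spread far wider than those labelled cKO and enclosed them. The log2 fold change of -0.16 had a standard error of 0.41 (adjusted p = 0.970 by limma), and it was 0.20 without A2.

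Bdnf, which encodes brain-derived neurotrophic factor, had the lowest mean FPKM of the members (2:109505045-109557352, plus strand, ENSMUSG00000048482). The units read 0.341, 0.236 and 0.260 FPKM in Ctrl and 0.872, 0.195 and 0.416 FPKM in A4, A9 and A10. A4 was the highest and A9 the lowest of all 6 units, both labelled cKO, so the groups overlapped. The values rest on 20 to 208 reads per library, and in A10 the S2 library was 2.10 times the S1 library. The mean log2 difference was 0.20 (exact permutation p = 0.5, two-sided, n = 3 per group), and without A4 it was 0.02.

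Ntrk2, the gene of the BDNF receptor TrkB (13:58954383-59281784, plus strand, ENSMUSG00000055254), measured 88.6, 91.8 and 104.9 FPKM in the Ctrl units and 96.6, 110.6 and 101.7 FPKM in A4, A9 and A10. The values interleaved, with A8 in Ctrl above A4 and A10. The log2 fold change was 0.11 with a 95% interval of -0.16 to 0.39 (adjusted p = 0.896 by limma). It was 0.06 without A9, 0.07 without A1 and 0.19 without A8. A value per gene joins the full-length and truncated forms of TrkB, which were not separated. Ntrk3, the gene of the NT-3 receptor TrkC (7:77825707-78387760, minus strand, ENSMUSG00000059146), was far lower, at 1.15, 2.27 and 1.89 FPKM in Ctrl and 1.26, 1.46 and 1.90 FPKM in A4, A9 and A10. The Ctrl units enclosed the 3 units labelled cKO. Its log2 fold change was -0.11 with an interval of -0.79 to 0.57 (adjusted p = 0.970 by limma), and it was 0.02 without A2.

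Fgfr3 (5:33879018-33894412, plus strand, ENSMUSG00000054252) measured 138.7, 129.8 and 159.8 FPKM in the Ctrl units and 154.2, 168.6 and 161.5 FPKM in A4, A9 and A10. A8 in Ctrl was above A4, and the other Ctrl units were below all units labelled cKO. Its fitted log2 fold change was 0.18 with a standard error of 0.12 (adjusted p = 0.818 by limma), and it was 0.11 without A2. On the opposite strand, G630022F23Rik covers 13.9% of its exonic bases.

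Fgfr1 (8:26003670-26065734, plus strand, ENSMUSG00000031565) measured 26.8, 25.4 and 40.7 FPKM in the Ctrl units and 38.3, 39.6 and 32.8 FPKM in A4, A9 and A10. A8, a Ctrl unit, was the highest of the 6, and A1 and A2 were the lowest. Fgfr1 had a log2 fold change of 0.27 with a standard error of 0.20 (adjusted p = 0.847 by limma), and it was 0.15 without A2 and 0.48 without A8 (adjusted p = 0.201).

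Fgfr2 was the FGF receptor among the members with a negative log2 fold change (7:129764181-132725079, minus strand, ENSMUSG00000030849). It measured 30.4, 25.6 and 25.8 FPKM in A1, A2 and A8, and 19.1, 23.0 and 19.8 FPKM in A4, A9 and A10. All 3 units and all 6 libraries labelled cKO were below those of Ctrl, the nearest pair being A9 and A2. The means were 27.3 ± 2.74 FPKM (SD, n = 3) and 20.7 ± 2.09 FPKM (SD, n = 3), a ratio of 0.757. The log2 fold change was -0.38 with a standard error of 0.13, and limma with Benjamini-Hochberg adjustment gave an adjusted p of 0.554 (unadjusted 0.0231). The exact permutation test gave p = 0.1, again the smallest possible. Ctbp2 on the same strand shares 3.04% of its exonic bases.

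**Figure D2:**
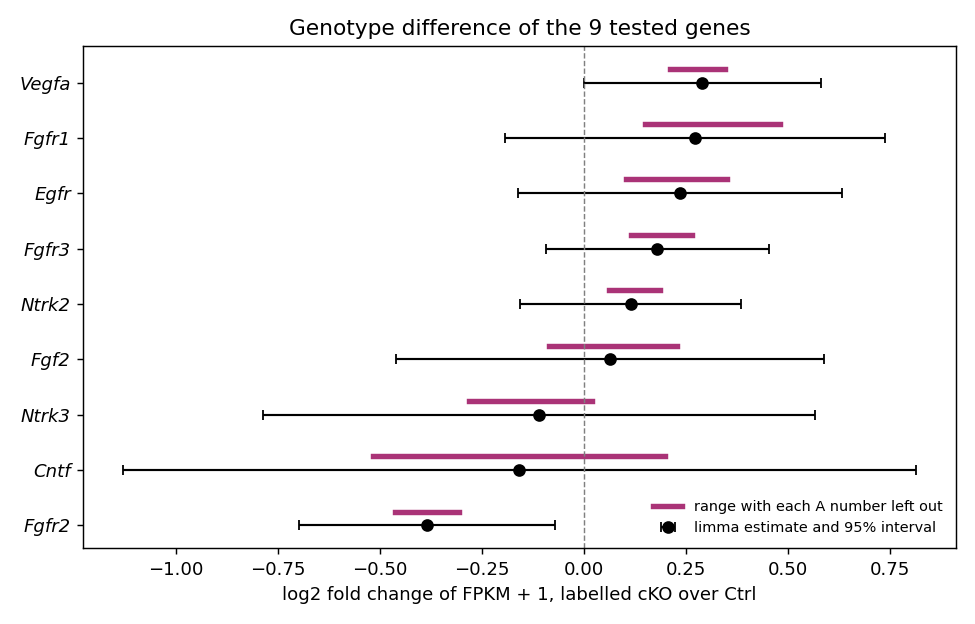
Log2 fold change of FPKM + 1, labelled cKO over Ctrl (horizontal axis), for the 9 members in the test; black points and bars are limma estimates with 95% intervals, and purple bars span the estimates with each A number left out. The intervals of Vegfa (0.29) and Fgfr2 (-0.38) lie on 1 side of 0, and the purple bars of Fgf2, Ntrk3 and Cntf cross it.

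Set against each other within a unit, the FGF receptors showed the separation without the scaling between libraries. The ratio of Fgfr3 to Fgfr2 was 4.56, 5.06 and 6.21 in the Ctrl units and 8.07, 7.32 and 8.14 in A4, A9 and A10. The ratio of Fgfr1 to Fgfr2 was 0.879, 0.990 and 1.58 in Ctrl and 2.0, 1.72 and 1.65 in A4, A9 and A10. In both ratios every unit labelled cKO was above every Ctrl unit, whereas the ratio of Fgfr3 to Fgfr1 averaged 4.74 ± 0.707 and 4.4 ± 0.466 (SD, n = 3 each) with overlap. Fgfr2 accordingly made up 13.7% ± 2.12 (SD, n = 3) of the summed Fgfr1, Fgfr2 and Fgfr3 FPKM in Ctrl and 9.42% ± 0.485 (SD, n = 3) in the units labelled cKO. For the ratio of Ntrk2 to Ntrk3 the means were 57.6 ± 18.2 and 68.6 ± 13 (SD, n = 3 each) with overlap. The 4 ratios were chosen after the levels were seen. The exact permutation test (two-sided) gave p = 0.1 for both ratios to Fgfr2, the smallest it can give, 0.6 for Fgfr3 to Fgfr1 and 0.7 for Ntrk2 to Ntrk3, or 0.2, 0.7 and 0.7 after Benjamini-Hochberg adjustment over the 4. With the oligodendrocyte marker score as a covariate, the log2 difference of Fgfr3 to Fgfr2 was 0.34 in place of 0.58, and that of Fgfr1 to Fgfr2 was -0.078 in place of 0.68. A ratio shows unequal change and not which gene differed.

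**Figure D3:**
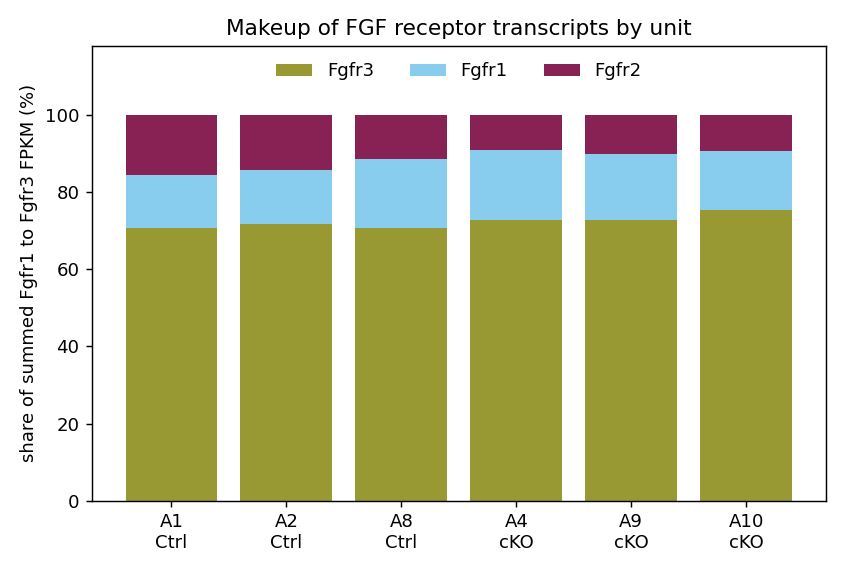
Share of Fgfr3, Fgfr1 and Fgfr2 in their summed FPKM (vertical axis, percent) in each of the 6 units, 1 stacked bar per unit. The Fgfr2 share runs from 11.4% to 15.5% in the Ctrl units and from 9.03% to 9.96% in the units labelled cKO.

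Egfr, the gene of the EGF receptor (11:16702203-16868158, plus strand, ENSMUSG00000020122), measured 24.5, 25.8 and 32.1 FPKM in the Ctrl units and 28.6, 39.0 and 30.2 FPKM in A4, A9 and A10. A9 was the highest unit, and A8 in Ctrl was above A4 and A10. Egfr had a log2 fold change of 0.24 with a standard error of 0.17 (adjusted p = 0.842 by limma), which was 0.10 without A9 and 0.35 without A8.

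The S1 and S2 libraries agreed closely for the abundant members and less so for the rare ones. The larger of the pair was at most 1.05 times the smaller for Vegfa, Ntrk2, Fgfr1, Fgfr2, Fgfr3 and Egfr. For Ntrk3 the largest such ratio was 1.09, for Fgf2 1.2 and for Cntf 1.61. Over the 6 units the highest was 5.59 times the lowest for Cntf and 4.47 times for Bdnf, but 1.25 times for Ntrk2 and 1.30 times for Fgfr3.

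As a score, the oligodendrocyte markers separated the groups in the direction of Fgfr2, lower in the units labelled cKO, and opposite to that of Vegfa. Their mean log2(FPKM + 1) was 6.31, 6.38 and 5.34 in A1, A2 and A8 and 3.70, 4.11 and 4.98 in A4, A9 and A10. A8 and A10 were the nearest across the groups on this score, and Vegfa read 85.3 and 93.7 FPKM there. Fgfr1 in A8 was near its level in A4 and A9, whereas Fgfr2 in A8 was near its level in A2. With the score as a covariate Fgfr2 differed by -0.31 (adjusted p = 0.864 by limma), and Fgfr1 by -0.39 (adjusted p = 0.827), the reverse of its sign without the covariate. Since the score did not overlap between the groups, the genotype label and the oligodendrocyte signal cannot be told apart in 6 units. The same holds for the astrocyte and microglia scores, which did not overlap between the groups either. Among the astrocyte markers, Aldh1l1 had a log2 fold change of 0.21 and Gja1 of 0.29, while S100b had -0.16. The part of the astrocyte signal in the members' values was not tested.

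**Figure D4:**
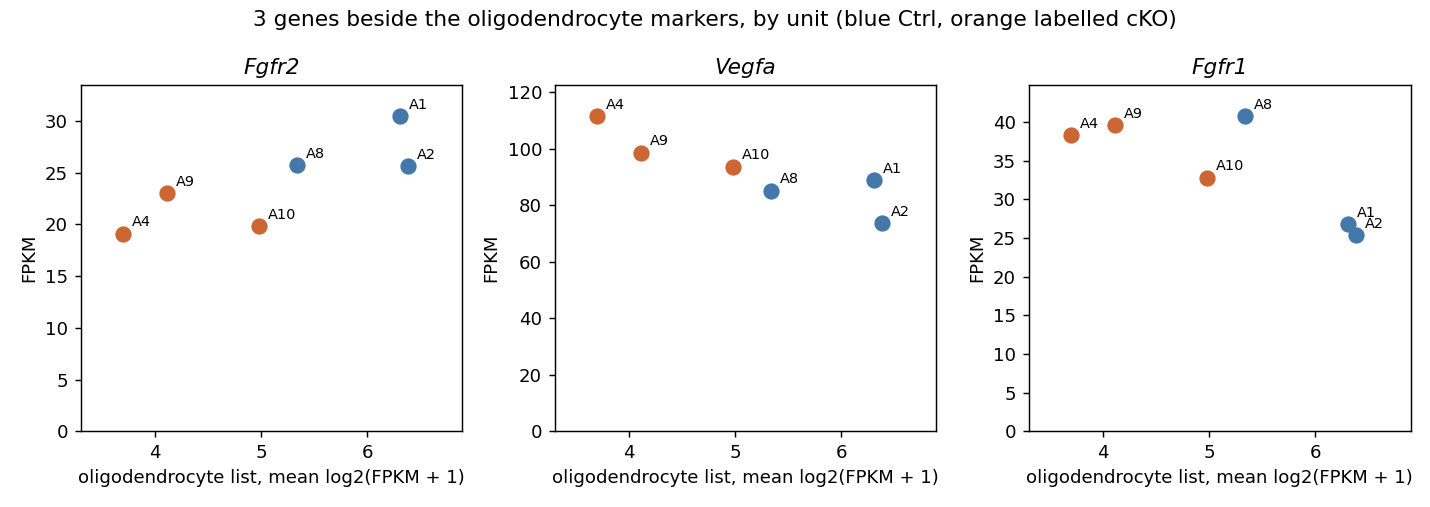
FPKM of Fgfr2, Vegfa and Fgfr1 (vertical axes, from 0) against the mean log2(FPKM + 1) over the 12 oligodendrocyte markers (horizontal axes) in the 6 units, blue for Ctrl and orange for labelled cKO. The score is 5.34 or more in the Ctrl units and 4.98 or less in the units labelled cKO, with A8 and A10 adjacent.

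Around the members, 10 pathway lists were read in the same limma fit, and 0 genes of any list passed an adjusted p of 0.05. The counts below stand beside the shares over all genes tested. Of those, 7.69% had an unadjusted p under 0.05 by limma (2.98% higher, 4.71% lower) and 49.2% were positive. All units labelled cKO were above all Ctrl units in 5.76% of genes and below them in 7.22%. Whether any list differed from these shares was not tested. In the neurotrophin list, 7 of 13 genes were tested, 4 with positive and 3 with negative log2 fold changes (median 0.11), and 0 passed at an unadjusted p under 0.05. Sort1, which encodes the sorting receptor sortilin, was at 47.4 ± 8.26 FPKM in Ctrl and 36.1 ± 3.61 FPKM in the units labelled cKO, with overlap. Kidins220, a scaffold of Trk receptors, was at 63.4 ± 5.52 and 62.1 ± 5.46 FPKM, and the adaptor gene Shc3 at 15.6 ± 1.35 and 19.0 ± 3.56 FPKM.

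In the list around CNTF and LIF, 13 of 18 genes were tested, with 8 positive and 5 negative (median 0.02), and 1 passed at an unadjusted p under 0.05. That gene was Lif, a cytokine that shares the LIFR and gp130 receptors with CNTF, at 1.19, 1.2 and 0.432 FPKM in Ctrl and 2.66, 2.08 and 2.18 FPKM in A4, A9 and A10. All units labelled cKO were above all Ctrl units, and its adjusted p was 0.607 by limma. Cntfr, the ligand-binding receptor subunit, was abundant at 62.7 ± 5.56 and 72.2 ± 11.9 FPKM, and Lifr stood at 22.2 ± 2.74 and 22.3 ± 2.76 FPKM. Jak1 was at 23.5 ± 0.0708 and 25.3 ± 0.145 FPKM without overlap (log2 fold change 0.10, unadjusted p = 0.340 and adjusted p = 0.893 by limma). Jak2 was at 16.3 ± 2.23 and 13.2 ± 2.15 FPKM with overlap.

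In the list of FGF ligands and receptors, 12 of 20 genes were tested, with 6 positive and 6 negative (median -0.02), and Fgfr2 was the 1 gene at an unadjusted p under 0.05. Fgfrl1, an FGF receptor without a kinase, was at 27.1 ± 6.94 and 34.3 ± 5.87 FPKM with overlap. Among 18 tested genes of FGF feedback and targets (Spry3 was not found), 10 were positive and 8 negative (median 0.09), and 2 were lower at an unadjusted p under 0.05. Etv1, a transcription factor downstream of FGF, was at 5.34, 7.45 and 6.9 FPKM in Ctrl and 4.09, 4.74 and 3.80 FPKM in A4, A9 and A10. All of its units labelled cKO were below all Ctrl units (log2 fold change -0.53, adjusted p = 0.547 by limma). Errfi1, a feedback inhibitor of the EGF receptor, was at 7.63 ± 2.30 and 4.60 ± 0.824 FPKM with overlap. The feedback inhibitor Spry2 was at 59.2 ± 6.58 and 69.6 ± 3.94 FPKM, Spred1 at 63.2 ± 9.40 and 61.3 ± 3.91 FPKM and Lrig1 at 60.2 ± 21.8 and 67.2 ± 14.8 FPKM, all overlapping.

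Among the VEGF ligands and receptors, 8 of 10 genes were tested, with 5 positive and 3 negative (median 0.25), and Vegfa and Vegfb were higher at an unadjusted p under 0.05. Vegfb, a related ligand of VEGFR1, read 17.5, 15.8 and 12 FPKM in Ctrl and 24.4, 22.6 and 17.8 FPKM in A4, A9 and A10. Its units did not overlap, although its libraries did, and its adjusted p was 0.607 by limma. Nrp1, a VEGF co-receptor, was at 3.78 ± 0.547 and 4.96 ± 0.619 FPKM with overlap. The endothelial receptor gene Flt1 was at 7.07, 7.48 and 1.01 FPKM in A1, A2 and A8 and 7.60, 1.41 and 1.37 FPKM in A4, A9 and A10, high in A1, A2 and A4 whatever their group.

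Of the EGF-family list, 8 of 15 genes were tested, with 3 positive and 5 negative (median -0.20), and Erbb3 was lower at an unadjusted p under 0.05. Erbb3, a neuregulin receptor also present in oligodendrocytes, read 9.5, 12 and 3.83 FPKM in Ctrl and 0.949, 2.08 and 4.84 FPKM in A4, A9 and A10, overlapping at A8 and A10 (adjusted p = 0.580 by limma). The EGF receptor ligands Tgfa and Hbegf were at 9.95 ± 2.25 and 6.46 ± 1.98 FPKM and at 8.25 ± 1.02 and 9.06 ± 0.679 FPKM, both with overlap. The oligodendrocyte score differed between the groups in the direction of Erbb3, and its part in that value was not tested.

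Of the 26 other trophic factors and receptors, 15 were tested, with 9 positive and 6 negative (median 0.05), and Pdgfa was lower at an unadjusted p under 0.05. Pdgfa, the PDGF ligand that acts on oligodendrocyte precursors, was at 6.87 ± 1.87 and 3.37 ± 1.06 FPKM without overlap of the units (adjusted p = 0.510 by limma). Ptn, which encodes pleiotrophin and had the highest mean of the list, was at 234.2 ± 1.27 and 269.4 ± 37.5 FPKM, and the related Mdk at 22.4 ± 3.42 and 31.5 ± 6.98 FPKM, both with overlap. Ncam1, a co-receptor for GDNF, was at 86.8 ± 4.84 and 82.3 ± 3.81 FPKM.

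All 24 genes of shared receptor kinase signalling were tested, with 7 positive and 17 negative (median -0.10). At an unadjusted p under 0.05, 1 was higher and 3 were lower. Map2k1, the gene of the MAPK kinase MEK1, read 13.8, 13.2 and 16.5 FPKM in Ctrl and 9.32, 9.05 and 11.1 FPKM in A4, A9 and A10. Its units did not overlap (log2 fold change -0.52, adjusted p = 0.446 by limma). Sos2, a RAS exchange factor, was at 15.3 ± 2.35 and 11 ± 0.962 FPKM, also without overlap. Gab1 and Pik3r1, a docking protein and a PI3K subunit, were at 31.8 ± 8.70 and 23.8 ± 2.30 FPKM and at 36.5 ± 3.53 and 33.5 ± 3.23 FPKM. Nf1, the gene of a RAS inhibitor, was at 30.7 ± 0.722 and 30.4 ± 0.629 FPKM, with overlap.

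The 17 immediate-early genes, which respond to receptor signalling and to cell dissociation, were all tested and all had negative log2 fold changes, from -1.51 to -0.52 (median -0.88). Of them, 3 were lower at an unadjusted p under 0.05 and 0 after adjustment. Fos read 402.8, 493.8 and 119.7 FPKM in Ctrl and 206.5, 86.4 and 192.4 FPKM in A4, A9 and A10. A1 and A2 were the high units, and A8 lay among the units labelled cKO. Jun (111.3 ± 42.9 and 71.9 ± 34.1 FPKM) and Egr1 (99.3 ± 68.7 and 50.8 ± 28.7 FPKM) overlapped as well. Egr2 (5.19 ± 3.85 and 0.885 ± 0.259 FPKM) and Nr4a2 (6.0 ± 2.18 and 2.53 ± 1.08 FPKM) did not overlap. Whether the timing of tissue dissociation differed is not given in the sources used here, and its part in these values was not tested.

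In the hypoxia list, which holds regulators and targets of the HIF factors that also control Vegfa, 12 of 13 genes were tested, with 6 positive and 6 negative (median 0.0049). Egln1, the oxygen-sensing prolyl hydroxylase, was lower at an unadjusted p under 0.05, at 15.5 ± 1.63 and 11.2 ± 1.01 FPKM without overlap (adjusted p = 0.508 by limma). Ldha, a glycolytic HIF target, was at 24.2 ± 2.05 and 30.2 ± 5.12 FPKM with overlap. Epas1 (92.0 ± 10.6 and 88.2 ± 8.49 FPKM), Slc2a1 (56.7 ± 13.1 and 50.3 ± 3.54 FPKM) and Pgk1 (42.7 ± 6.57 and 44.8 ± 4.79 FPKM) overlapped too.

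**Figure D5:**
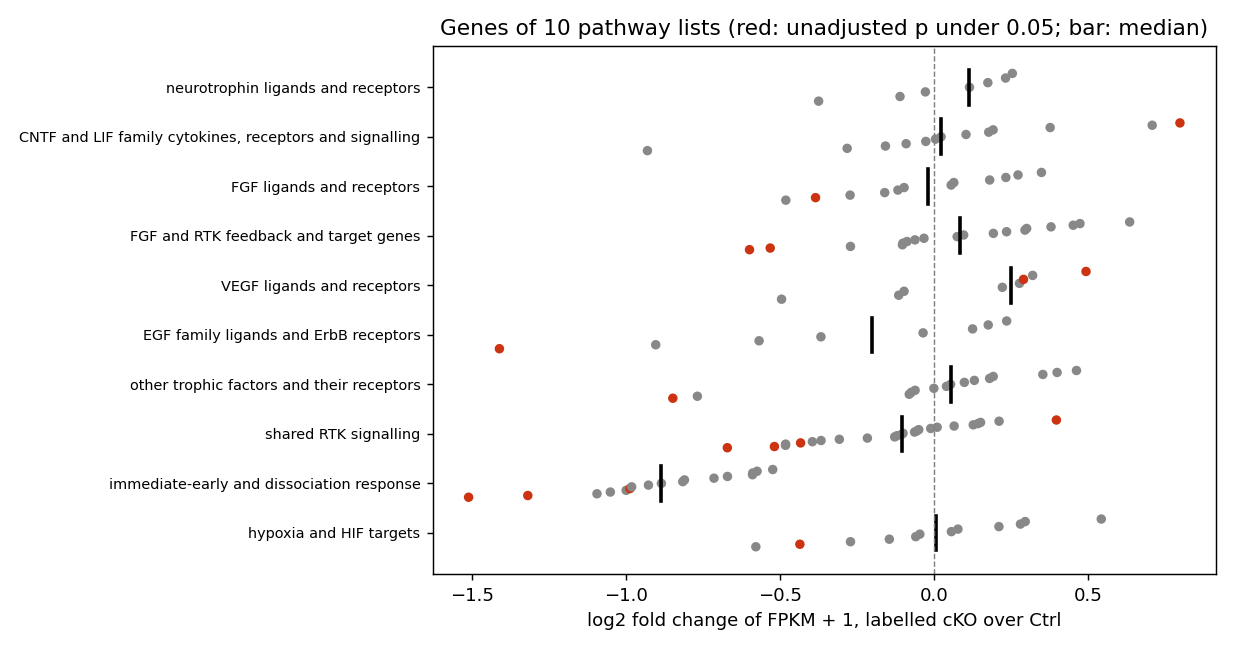
Log2 fold change of FPKM + 1, labelled cKO over Ctrl (horizontal axis), of every tested gene in the 10 pathway lists (rows); red points have an unadjusted p under 0.05 in limma, and black bars are list medians. The immediate-early list is to the left of 0 throughout (median -0.88) and the VEGF list has a median of 0.25, while 0 genes pass after adjustment.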

How the data were processed

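The authors deposited 1 table of FPKM values (fragments per kilobase of exon, scaled to 1000000) for 12 libraries, and the submitters' processing notes name FastQC, STAR, featureCounts and DESeq2, with the builds mm10 and GRCm38 and no versions. Of 51948 genes matched to GENCODE M21 on GRCm38, 2.7% had the same start and end and 95.8% the same span length, so the build of the deposited coordinates is not settled and they are given as deposited. Depth was recovered from the steps of low FPKM values, with 85.7% to 89.5% of values whole within 0.02 of a read; such reads are not independent molecules. S1 and S2 were averaged, and genes with a mean of at least 1 FPKM were tested on log2(FPKM + 1), which understates the change of low genes. The test was limma 3.58.1 in R 4.3.3 (eBayes with trend, two-sided, Benjamini-Hochberg over all genes tested). A run on simulated data with independent noise per gene was checked for the size of planted changes and not for error rates. Exact permutation tests used scipy 1.17.1 in Python 3.11.15. Rows sharing a symbol (147 symbols) were summed. The members and gene lists were chosen with earlier results of these data known. The genes named are the members, Tnfrsf1b and some genes that share exonic bases with a member. From each list, the 3 highest by mean FPKM and the 2 smallest unadjusted p in limma are named. For each member, the 2 tested genes nearest in pattern are named. Flt1 and the markers Slc1a2, Tmem119, C1qa, Aldh1l1, Gja1, Gfap and S100b were added after their values were seen. Alternatives changed the pseudocount, filter, scaling, variance model and libraries, or added an oligodendrocyte covariate. Replicate numbers mark S1 and S2 and pair no Ctrl unit with a unit labelled cKO.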

Additional observations from a re-analysis of the deposited data

How the results depend on the processing

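No member passed an adjusted p of 0.05 under any alternative run, the lowest adjusted p being 0.184 (Fgfr2, limma on the 12 libraries with a random effect per A number), 0.201 (Fgfr1, without A8) and 0.211 (Vegfa, random effect). Over all genes the random-effect fit called 112, where the correlation within an A number was 0.915, and the fit with a replicate block for S1 and S2 called 80; leaving out each A number in turn gave 0 to 1 genes, the 1 without A1. Of 186 refits of the 9 members tested, 176 kept their direction. Refits that changed only the filter, the variance model or the random effect returned the main log2 fold change. They could not reverse it, and they are counted among the 176. Vegfa stayed between 0.05 and 0.37, Fgfr2 between -0.47 and -0.31 and Fgfr3 between 0.02 and 0.26. The oligodendrocyte covariate turned Cntf to 0.89, Fgf2 to -0.15, Ntrk2 to -0.022, Ntrk3 to 0.093, Fgfr1 to -0.39, Egfr to -0.037, Bdnf to -0.0059 and the log2 ratio of Fgfr1 to Fgfr2 to -0.078, and moved that of Fgfr3 to Fgfr2 to 0.34; the cause was not tested. Leaving out each A number in turn moved Cntf from -0.52 to 0.20, Fgf2 from -0.086 to 0.23 and Ntrk3 from -0.28 to 0.019. Bdnf differed by 0.48 with a pseudocount of 0.1 and was not tested under the filter. The log2 ratios of Fgfr3 and Fgfr1 to Fgfr2 ran from 0.48 to 0.71 and 0.51 to 0.94 under the other alternatives, all of them, like the covariate for these ratios, added after seeing the data. Low read numbers limit Bdnf and Cntf. With 3 units per group no permutation p can be below 0.1.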

Other observations

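The tested genes whose log2(FPKM + 1) followed each member most closely over the 6 units are given as a description, since 6 points leave many genes with a high correlation: 15 to 109 genes per member had a Pearson r over 0.95, and all of them share the libraries and their depth. Ntrk2 was nearest to Adcyap1r1 (r = 0.994 over 6 units), the gene of the PACAP receptor, and to Atp1b2 (0.992), which encodes a sodium pump subunit typical of astrocytes. Fgfr1 was nearest to Atp13a4 (0.997) and Ice2 (0.995), and Fgfr3 to Ntmt1 (0.998) and Zfp691 (0.995). Vegfa was nearest to Tle4 (0.993), a transcriptional corepressor, and Tmem38a (0.992), and Fgfr2 to Cep97 (0.987) and Trak2 (0.986). For Egfr the nearest were Mrpl52 (0.996) and Pcdhga10 (0.992). Of the rarer members, Bdnf was nearest to Uimc1 (0.986) and Gm54844 (0.980), Cntf to Gm40117 (0.994) and Lbh (0.992), Fgf2 to Gm46878 (0.992) and Zfp442 (0.981), and Ntrk3 to 4933416I08Rik (0.998) and Gm44151 (0.993).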
